A study of Mus musculus with 3 samples.

Results

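The globin and erythroid genes described here are 9 genes known from red cells and their precursors, among them Hba-a1 and Hbb-b2 for the globin chains of adult haemoglobin. They were taken as all probe sets whose single gene symbol in the platform annotation was Hba-a1, Hbb-b2, Alas2, Slc4a1, Klf1, Nfe2, Rhag, Ank1 or Car2. This gave 11 probe sets of the 12422 compared and 9 genes of 8251. The series held 3 Affymetrix mouse arrays, 1 per group, from lungs of mice with a B16 tumour (a mouse melanoma line), lungs of mice with an LLC tumour (Lewis lung carcinoma) and lungs of normal mice, here called the B16 lung, the LLC lung and the control lung. Tumour cells had been injected under the skin of the back, a model of lungs that respond to a distant tumour before tumour cells arrive. Strain, age, the time after injection, the number of animals per sample and whether the lungs were perfused are not stated by the labels. With 1 array per group there is no replicate error and no test, so every difference describes these arrays and not the conditions.

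Haemoglobin carries oxygen in the red cell and is built from alpha-like and beta-like globin chains with heme. Red cell precursors mature in bone marrow and, in the mouse, also in the spleen, under the transcription factors Gata1 and Klf1, and they make heme from a first step catalysed by Alas2. Reticulocytes, the young red cells that enter the blood, have lost the nucleus but keep globin and other messenger RNA for a time, so blood held in the lung brings such RNA into a lung sample. Alas2, Slc4a1, Klf1 and Rhag are transcribed in the nucleated precursors. They are set against the globins below, together with Nfe2, Ank1 and Car2, and that contrast does not by itself separate stages of the red cell. In a tissue sample, more such cells and more RNA per cell cannot be told apart.

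Values are background-subtracted intensities after multiplication by 1 factor per array, called signals below. A signal under the floor of 23.6, the percentile 40 of all values, was treated as not measured above the floor. Values below 0 made up 21.0% of the probe sets on the B16, 20.2% on the LLC and 20.3% on the control array. The lung label fits its epithelial markers: of 9 listed genes 6 had a named probe set, and all 6 were above the floor on every array, Sftpc (surfactant protein C) with 7482, 7296 and 6206 in the B16, LLC and control lung.

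Promoters of 4 of the 9 genes were matched in a RefSeq table (build GRCm38.p6): Hba-a1, Alas2, Klf1 and Rhag. The 250 bases before the start site are shown 5′ to 3′ for Hba-a1, at chr11:32283422-32283671, Alas2, at chrX:150547167-150547416, and Klf1, at chr8:84901732-84901981, all on the plus strand, because these genes of different roles all read above the control lung in both tumour-bearing lungs. Capitals mark the letters of a GATA motif, the sequence that Gata1 is known to bind, on either strand.
Hba-a1: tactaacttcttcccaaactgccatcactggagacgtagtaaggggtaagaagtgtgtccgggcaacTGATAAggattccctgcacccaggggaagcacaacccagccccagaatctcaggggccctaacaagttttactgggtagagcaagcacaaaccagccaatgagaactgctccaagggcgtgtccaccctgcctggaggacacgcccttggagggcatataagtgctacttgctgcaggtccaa
Alas2: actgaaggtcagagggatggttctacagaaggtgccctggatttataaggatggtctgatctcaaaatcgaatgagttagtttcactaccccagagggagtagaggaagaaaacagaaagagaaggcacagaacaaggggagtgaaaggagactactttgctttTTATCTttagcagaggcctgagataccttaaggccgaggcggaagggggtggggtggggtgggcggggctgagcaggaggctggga
Klf1: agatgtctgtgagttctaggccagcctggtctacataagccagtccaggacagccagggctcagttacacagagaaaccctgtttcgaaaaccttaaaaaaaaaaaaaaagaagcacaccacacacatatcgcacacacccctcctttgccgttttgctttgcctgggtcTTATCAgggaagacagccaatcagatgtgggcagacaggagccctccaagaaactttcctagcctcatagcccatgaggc
The motif was searched as AGATAA, then AGATAG, then TGATAA and then TGATAG, on both strands. It lay 183 to 178 bases before the start in Hba-a1, 86 to 81 in Alas2, 80 to 75 in Klf1 and 31 to 26 in Rhag, where those letters lie after an earlier annotated start of the same gene. All 4 windows held it, against 27.1% of the 27025 windows of all genes. The letters CACCC, the core of the sequence that Klf1 is known to bind, were in all 4 as well, against 51.3% of all windows, and overlapped the GATA motif in none of them. CCAAT was in 3 of 4 windows and in 34.5% of all, and TGANTCA, close to what Nfe2 is known to bind, in 0 of 4 and in 6.87% of all. A match here is only letters in a window and does not show binding, and a missing match says only that the letters are not in it.

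The alpha-globin gene Hba-a1 was about equally high in both tumour-bearing lungs. Its signal was 6911 in the B16 lung and 6858 in the LLC lung, against 5388 in the control lung. That is 1.28-fold and 1.27-fold, or log2 differences of 0.36 and 0.35, while the tumour-bearing lungs differed from each other by 0.01. Its promoter window was identical to that of Hba-a2 over the 297 bases that overlap, and the messages of this gene pair are nearly the same, so the probe set may read both. The beta-globin gene Hbb-b2 read 3749.7 and 3943.5 against 3680.3, log2 differences of 0.03 and 0.10. It was thus nearly level across the 3 arrays.

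Further probe sets carry globin annotation without belonging to a single adult gene. One annotated to both adult alpha genes read 3183 in the B16 lung and 3239.7 in the LLC lung, against 2604 in the control lung, log2 differences of 0.29 and 0.32. One annotated to several adult beta genes read 7362.5 and 6866 against 5780.4, differences of 0.35 and 0.25, while a second with the same annotation was below the floor on all 3 arrays. The alpha-globin pseudogene Hba-ps3 did not follow them, with 472 and 803 against 699.9, differences of −0.57 and 0.20. These probe sets were looked at after the values of the genes were known, and no level is assigned to a single gene from those with several names.

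**Figure D1:**
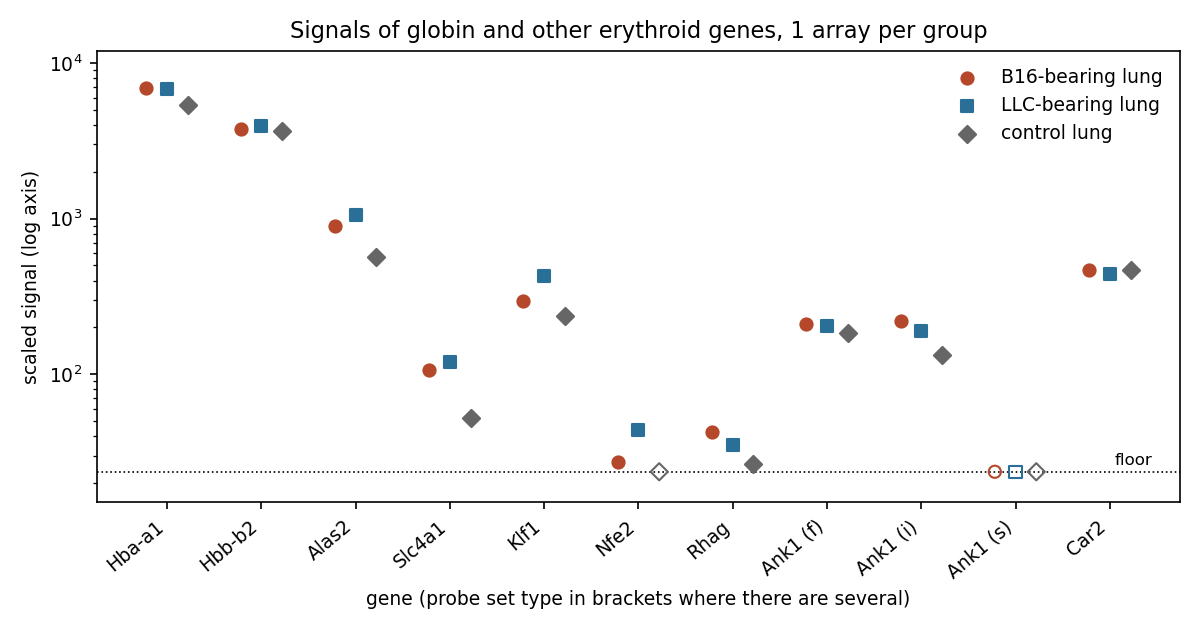
Scaled signal (log axis) of each probe set of the 9 genes on the B16, LLC and control array, 1 point per array; open symbols lie below the floor of 23.6 and are drawn on it. Alas2, Slc4a1 and Klf1 show a wider gap between the tumour-bearing lungs and the control lung than Hbb-b2 or Car2.

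The globin difference has to be read beside other bright probe sets. On the control array 3 probe sets were brighter than Hba-a1 and 9 brighter than Hbb-b2. Of the 22 probe sets with a mean signal over 3000, 4 carry globin annotation. The other 18 had median log2 differences of 0.21 in the B16 lung and 0.19 in the LLC lung, and 15 and 18 of them were above the control lung. Hba-a1 lay above 16 of these 18 in the B16 lung and above 18 of 18 in the LLC lung. Hbb-b2 lay below 15 and below 14 of them. Quantile normalization, which gives the 3 arrays the same distribution, left Hba-a1 at 0.13 in both lungs and put Hbb-b2 at −0.08 and −0.02. Whether the top of the scale was compressed by saturation was not tested.

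**Figure D2:**
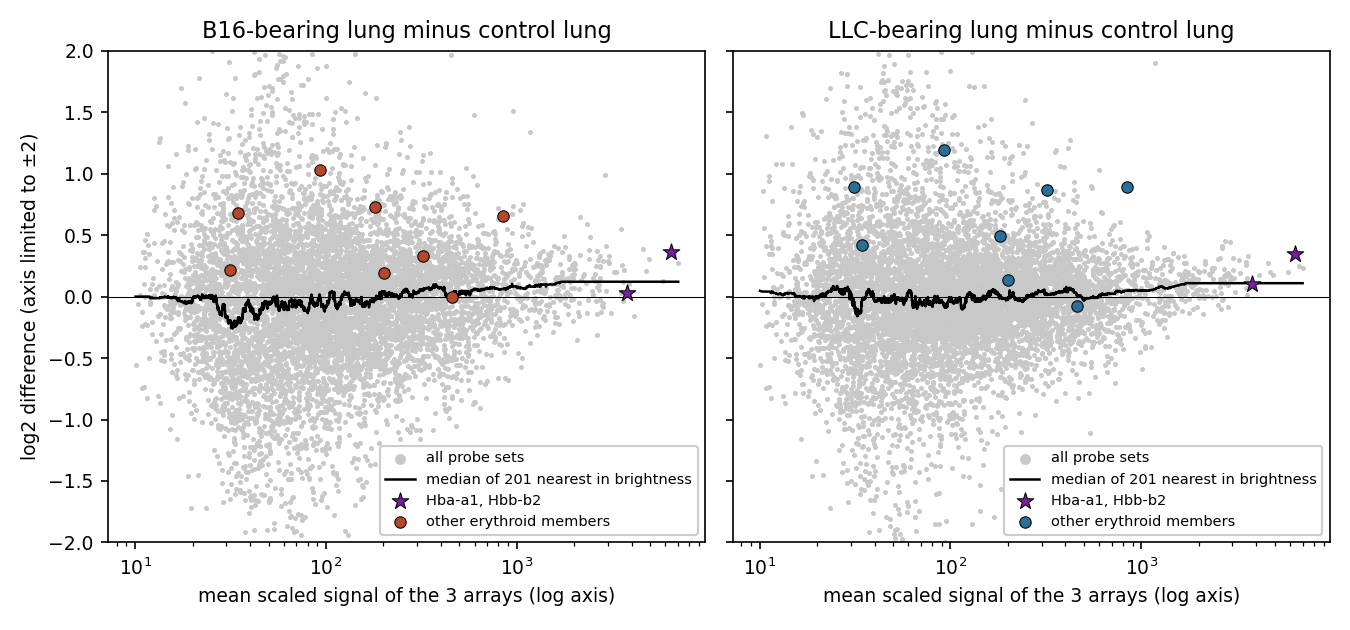
Log2 difference from the control lung against mean scaled signal (log axis) for probe sets with a mean over 10 (vertical axis limited to ±2) of the B16 lung (left) and the LLC lung (right); the line is the median of the 201 probe sets nearest in brightness, stars are Hba-a1 and Hbb-b2 and filled circles the other erythroid probe sets. At the bright end the line is the median of the 201 brightest probe sets, most with a mean signal below 3000. It lies there at 0.12 on the left and 0.11 on the right, with Hba-a1 above it and Hbb-b2 at or below it.

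Alas2, the erythroid form of the enzyme that starts heme synthesis, was higher than the globins in relation to control, on a probe set marked by its name as common to several transcripts. Its signal was 897 in the B16 lung and 1057 in the LLC lung, against 570.8 in the control lung. This is 1.57-fold and 1.85-fold, log2 differences of 0.65 and 0.89. Each exceeded the spread between the tumour-bearing lungs at this brightness, a robust SD of 0.28 for signals from 500 to 1000, which contains true differences between the 2 tumour models besides noise. The Alas2 difference was larger than that of Hba-a1 by 0.29 in the B16 and 0.54 in the LLC lung.

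Membrane proteins of the red cell followed. Slc4a1 encodes band 3, the chloride and bicarbonate exchanger that anchors the red cell skeleton. It read 106.8 in the B16 lung and 119.7 in the LLC lung, against 52.3 in the control lung. The folds were 2.04 and 2.29, or log2 differences of 1.03 and 1.19. The robust SD between the tumour-bearing lungs was 0.51 for signals from 50 to 100. With a floor at a signal of 100 the differences were 0.10 and 0.26, because the control signal lies under that floor. Rhag, the Rh-associated glycoprotein, was dim, with 42.3 and 35.2 against 26.3, differences of 0.68 and 0.42 on a probe set built, by its name, with relaxed rules. The robust SD was 0.62 for signals under 50, so the LLC value lay within it and the B16 value just above it.

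Ank1, the ankyrin that links band 3 to spectrin, was read by 3 probe sets that did not give the same size. The first, whose name marks an incomplete probe set, had 221 in the B16 lung and 188 in the LLC lung, against 133.5 in the control lung (0.73 and 0.50). The second, whose name marks a gene family, had 212 and 203 against 185, differences of only 0.19 and 0.14. The remaining one was below the floor on all 3 arrays. Ank1 is also expressed outside red cells, in muscle and brain among others.

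Of the transcription factors, Klf1 differed between the tumour-bearing lungs by 1.45-fold, more than the robust SD at its brightness but short of 1.5-fold. Klf1, the erythroid factor that switches on adult beta-globin, had 296 in the B16 lung and 429 in the LLC lung, against 235 in the control lung. Its log2 differences were 0.33 and 0.87, and the log2 difference of the B16 lung from the LLC lung was −0.54, where the robust SD for signals from 200 to 500 was 0.32. Nfe2, a factor of red cell and platelet precursors, read 27.3 and 43.7 against 23.0 in the control lung, just under the floor, so that its folds of 1.16 and 1.85 are lower bounds. All 3 signals of Nfe2 are close to the floor, and its B16 minus LLC log2 difference of −0.68, beside a robust SD of 0.62, was −0.53 with quantile normalization and −0.50 after centring on probe sets of like brightness, within that spread. Car2, the carbonic anhydrase of the red cell cytoplasm that many other cells also make, had 465.5 and 441 against 465.5, differences of 0.00 and −0.08, and so was level.

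**Figure D3:**
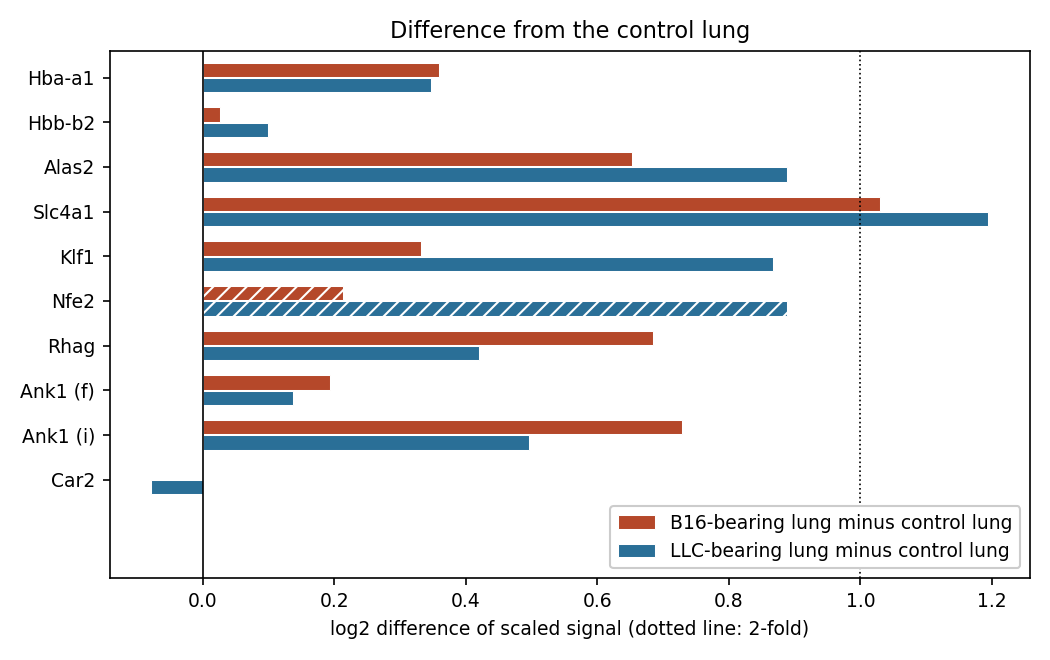
Log2 difference of scaled signal from the control lung for the 10 probe sets above the floor, B16 bar above LLC bar; hatched bars are lower bounds and the dotted line marks 2-fold. Slc4a1 passes 2-fold in both lungs and Car2 lies at 0.00 and −0.08.

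Counted together, 10 of 11 probe sets were measured. In the B16 lung 10 of 10 lay above the control lung, Car2 only by a margin that rounds to 0, where 48.6% of all measured probe sets did. In the LLC lung 9 of 10 did, where 50.2% of all did. At least 2-fold higher was 1 of 10 in each, Slc4a1, where 3.42% of all probe sets were in the B16 and 4.18% in the LLC lung. At least 1.5-fold higher were Alas2, Slc4a1, Rhag and 1 Ank1 probe set in the B16 lung, 4 of 10 against 9.9% of all, and Alas2, Slc4a1, Klf1 and Nfe2 in the LLC lung, 4 of 10 against 9.79%. Both comparisons use the same control array, so a low reading there raises both. Nfe2, below the floor on that array, was measured only through the tumour-bearing lungs and could only count as higher. Between the tumour-bearing lungs 5 of 10 were higher in the B16 lung, where 46.9% of all were, and Nfe2 alone differed by 1.5-fold or more, being lower in the B16 lung as were 13.4% of all, while 9.39% of all were higher by as much.

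The globins and the other 7 genes differed in size. The median log2 difference of the globins was 0.19 in the B16 and 0.22 in the LLC lung. It is the midpoint of 2 unlike probe sets, Hba-a1 (0.36 and 0.35) and Hbb-b2 (0.03 and 0.10). Left out of it were the bright probe sets with several gene names, at 0.29 and 0.32 for adult alpha and 0.35 and 0.25 for adult beta. The gap with these added was not computed. The other 8 measured probe sets had a median of 0.49 and 0.68. The globin median minus the other was −0.30 and −0.46, while all measured probe sets had medians of −0.01 and 0.00. Of the 8 probe sets, 4 exceeded both globins in the B16 lung and 6 in the LLC lung. Slc4a1 exceeded Hba-a1 by 0.67 and 0.85, whereas the Car2 difference minus that of Hba-a1 was −0.36 and −0.43. With 1 brightest probe set per gene the gap was −0.14 and −0.64, with a floor of 100 it was −0.07 and −0.15, and without probe sets of relaxed or shared design it was −0.08 and −0.65, so its size depends on which probe sets enter.

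The wider set of red cell genes was mixed. Of 56 further genes in 5 lists 36 had a named probe set and 28 were measured in each comparison with the control lung. On the brightest probe sets, Hbb-bh1 and Rhd were measured only in the B16 comparison and Zfpm1 and Hbb-y only in the LLC comparison. Each lay below the floor in the control lung, so it could only be higher. Above the control lung were 16 of 28 in the B16 and 16 of 28 in the LLC lung, with medians of 0.14 and 0.04, where 49.4% and 49.9% of all genes with a measured brightest probe set were above it. Of the 28, 3 were at least 2-fold higher in the B16 lung and 0 in the LLC lung (3.42% and 4.18% of all probe sets), with 0 at least 2-fold lower in either (4.97% and 2.93%).

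Embryonic globins were dim, and the probe sets of Hbb-y differed. Hba-x read 34.2 in the B16 lung and 24.0 in the LLC lung, against 41.4 in the control lung. Hbb-bh1 had 50.3 in the B16 lung and lay below the floor in the others, at least 2.13-fold higher than control. Hbb-y read 22.1 and 24.2 against 20.8 on one probe set and 81.8 and −41.3 against 23.9 on another. The latter is 3.42-fold higher in the B16 lung than in the control lung, whose signal lies just above the floor. Its name marks a gene family, so it may read other genes. Heme synthesis enzymes beyond Alas2 were mixed, with 2 of 7 above the control lung in the B16 lung (median −0.25) and 4 of 7 in the LLC lung (0.04). Alas1, the form found in all tissues, read 1502 and 1434 against 1159, while Alad read 474 and 546 against 533, Cpox 149 and 184 against 176.5, and Urod 79.3 and 78.3 against 95.0. A second Urod probe set was dimmer and differed in direction in the B16 lung, with 67.6 and 9.6 against 32.5, or 2.08-fold higher. Fech, which inserts iron into heme and was picked out after its values were seen, read 44.1 and 86.3 against 86.8.

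Of the red cell membrane list 6 of 15 genes had a named probe set. In the B16 lung 3 of 4 measured were above control (median 0.43) and in the LLC lung 3 of 3 (0.21). Of all measured genes 49.4% and 49.9% were above the control lung. Aqp1, a water channel of red cells that lung endothelium also makes in quantity, had 1242 and 810.2 against 781. Stom, the membrane protein stomatin, had 786 and 753 against 650.4 on its brightest probe set, built by its name with relaxed rules. Another Stom probe set had 498.6 and 412.7 against 415.2, level in the LLC lung. Mpp1 had 266 and 499 against 371. Rhd was above the floor only in the B16 lung, with 35.6, so it could only count as higher there. Epb42 and Dmtn, of the membrane skeleton, were below the floor on all 3 arrays.

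Erythroid regulators showed no common direction, with 5 of 8 measured above control in the B16 lung (median 0.09) and 4 of 9 in the LLC lung (−0.05). Gata1, the factor that directs red cell maturation, Epor, the erythropoietin receptor, Tal1 and Sox6 were below the floor on all 3 arrays. Gata2, a factor of early progenitors that endothelium also expresses, had 477 and 256 against 222. Gfi1b had 99.9 in the B16 lung and 44.1 in the control lung and lay below the floor in the LLC lung. Kit had 302 and 370.5 against 383 and Ldb1 154 and 266 against 202. Lmo2 had 185.5 and 206 against 299, and on a dimmer probe set 124.8 and 113.2 against 136.3, smaller differences. For iron and metabolism, 5 of 7 in the B16 lung (0.22) and 4 of 7 in the LLC lung (0.32) were above control. Tfrc, the transferrin receptor that brings iron into red cell precursors and dividing cells, read 733 and 804 against 627, and Slc11a2, an iron transporter, 584 and 608 against 485 on the brighter probe set and 107.8 and 97.4 against 107.5 on the other. Prdx2, an abundant antioxidant enzyme of red cells, was near level with 419.6 and 467 against 476, while the probe sets of Cat, the catalase, disagreed. The brighter had 325 and 475 against 575 and the other 131 and 133 against 110.6.

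**Figure D4:**
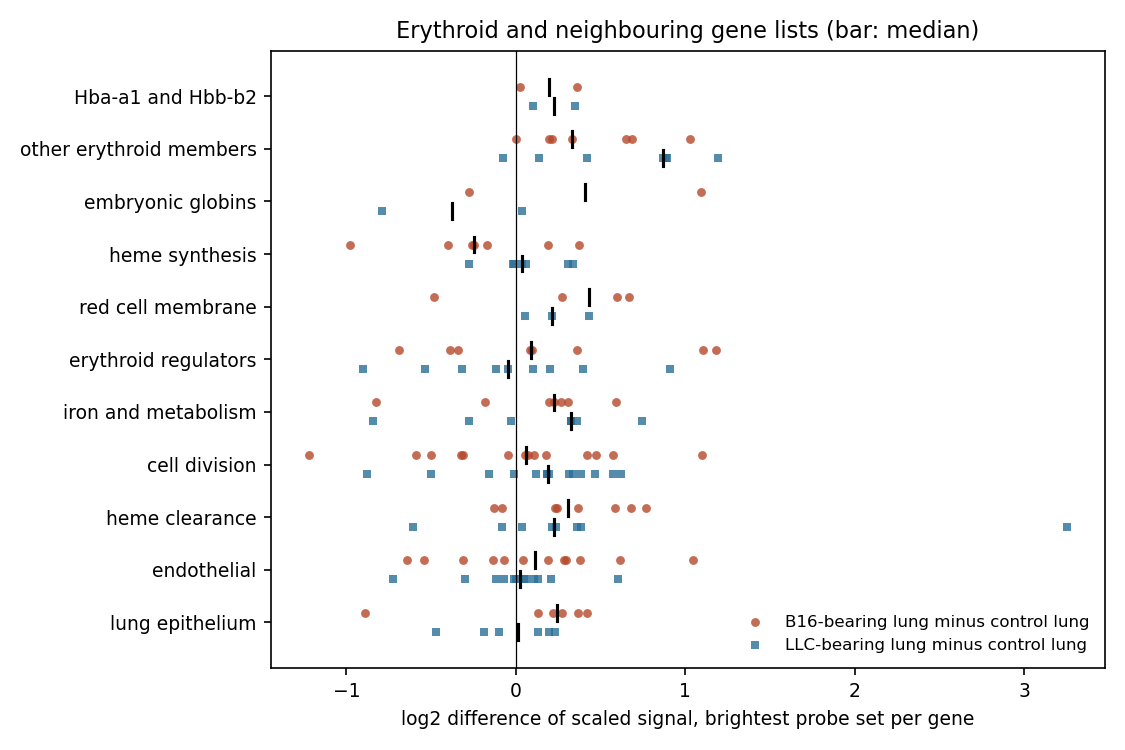
Log2 difference from the control lung for each measured gene of the lists (brightest probe set), circles for the B16 lung above squares for the LLC lung, with the median as a bar. The other erythroid genes have medians of 0.33 and 0.87 on this 1 probe set per gene, while heme synthesis has −0.25 and 0.04 and the erythroid regulators 0.09 and −0.05.

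Markers of other blood cells moved as well, in different directions. In the granulocyte list 11 of 12 measured genes were above control in each tumour-bearing lung. Of these, Mpo and Prtn3 lay below the floor in the control lung and could only be higher. The summed signal of the 14 genes was 3606 in the B16 lung and 5463 in the LLC lung, against 2255 in the control lung. S100a8 (1224 and 1809.9 against 484.7) and S100a9 (866 and 1683.5 against 304.6) carry most of that rise. Past 2-fold in either lung were S100a8, S100a9, Ltf, Prtn3 and Mmp9, all higher, where 3.42% of all probe sets were as much higher in the B16 and 4.18% in the LLC lung. Chil3 went the other way, with 288 and 442 against 549.5, and Lcn2 had 314 and 410.1 against 288.9, while Ngp and Mmp8 were below the floor throughout. Of the B lymphocyte list 7 of 7 measured were below control in each, with summed signals of 360 and 442 against 878. Cd79a, Fcer2a, Blnk and Pou2af1 were at least 2-fold lower in both (4.97% of all probe sets in the B16 and 2.93% in the LLC lung). Fcer2a, Blnk and Cd72 were above the floor only in the control lung, so they could only be lower. The same held for Cd79a and Pou2af1 in the B16 comparison. On their brightest probe sets Cd79b (−0.43 and −0.58) and Ms4a1 (−0.69 and −0.47) were above the floor on every array. Cd22 and Blk were below it on all 3 arrays. Of 5 platelet markers with a named probe set Pf4, Itgb3 and Gp1bb were below the floor on all 3 arrays, Gp5 was above it only in the B16 lung, with 24.7 and 21.3 against 11.6, and Gp9 was above it on every array, with 136.6 and 105 against 89.1. Hepatocyte genes were high in the LLC lung. Their summed signals were 233.5 in the B16 lung, 4785 in the LLC lung and 196.5 in the control lung. Of the 12 genes 10 were measured in the LLC lung, and all 10 were at least 2-fold above control (4.18% of all probe sets). Apoa2, Serpina1b and Mup5 were above the floor in the control lung. Alb, Apoa1, Fga, Fgb, Fgg, Ahsg and Mup3 were not, and their folds are lower bounds. They counted as measured only through the LLC array, so they could only be higher. Apoh and Ttr were below the floor on all 3 arrays. Endothelial genes had medians of 0.12 and 0.03, with 7 of 12 above control in each, and Vwf, the von Willebrand factor, past 2-fold in the B16 lung. The part of these cell types in the differences of the globin and erythroid genes was not tested.

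Genes outside all lists with the pattern nearest to the globins were sought among 2724 genes with signals of at least 100 on all 3 arrays, by the Euclidean distance of the pair of log2 differences from control. Nearest to Hba-a1 were Psmd13, Csnk2a2, Stk10, Pkm and Gm1673, with distances from 0.022 to 0.041. Nearest to Hbb-b2 were Casp9, Sgta, Gh, Atp6ap1 and Tmem229b, with distances from 0.0053 to 0.011. Within a distance of 0.05 lay 14 genes for Hba-a1 and 50 for Hbb-b2. The likeness rests on 3 arrays and describes the size of 2 differences that share the control array.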

How the data were processed

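Total RNA of frozen lungs was isolated with TRIzol and labelled with biotin as cRNA, per the labels' protocols. The authors deposited a linear intensity for every probe set of every array, and values below 0 show that background had been subtracted; the software is not given in the sources used here. After trimming 2% of values at either end, each column averaged 100.1, so the deposited columns appear to be scaled by 1 factor per array. Arrays carry no read depth, and their number limits the precision.

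Of 12488 probe sets 66 controls were left out. The platform annotation names 1 gene for 10833 of the rest, several for 396 and none for 1193. Each array was multiplied by 1 factor (0.987, 1.01 and 1 for the B16, LLC and control array) that set the median log2 ratio to control to 0 over the brighter probe sets. Values under the floor were raised to it before log2 was taken, and a probe set was measured if above the floor on at least 1 array of a pair. Differences against a signal below the floor are lower bounds. Called means at least 2-fold (or 1.5-fold where stated). The 3' to 5' ratios of the beta-actin controls were 1.56, 1.47 and 1.44, and those of the Gapdh controls 1.20, 1.001 and 0.957. The robust SD is the scaled median absolute deviation of the log2 difference between the tumour-bearing lungs.

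The genes and the 14 further lists were chosen with earlier results of these data known. For each further list, up to 4 genes with the highest mean signal and those at least 2-fold from control were to be named. For lung epithelium and endothelium not all of the 4 are. Python 3.11.15, numpy 2.4.6 and pandas 2.3.3 were used, and the steps were tested on simulated data.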

Additional observations from a re-analysis of the deposited data

Results flagged for a closer look

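In 5 of the genes named from the lists the tumour-bearing lungs lay on opposite sides of the control lung by at least 1.25-fold each. With 1 array per group these differences were not tested. The share of all probe sets that did so was not computed, so the count has no background. Among list genes not named, Slc48a1 (0.77 and −0.60), Sftpd (0.42 and −0.47) and Pklr (0.59 and −0.85, below the floor in the LLC lung) also met the rule. Gfi1b, a repressor needed for red cell and platelet precursors, had log2 differences of 1.18 in the B16 lung and −0.90 in the LLC lung, where its signal lay below the floor. Mpp1, a membrane scaffold protein of red cells, had −0.48 and 0.43. Ldb1, a partner of Lmo2 in erythroid transcription complexes, had −0.39 and 0.40. Car3, a carbonic anhydrase of muscle, fat and liver, had −2.05 and 0.49. Mup5, a major urinary protein made in liver, had −0.51 and 5.26, on a probe set that can bind other family members. Its B16 signal of 8.1 lay below the floor and its control signal was only 33.7.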

How the results depend on the processing

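Of the median differences of the globins and of the other erythroid probe sets, all kept their direction under the 8 alternatives and the centring, with a single exception: the globin median of the B16 against the LLC lung was 0.0041 with deposited values in place of −0.03. The globin medians against control ranged from 0.03 to 0.21 in the B16 and 0.05 to 0.22 in the LLC lung, lowest with quantile normalization. Centring on the 201 probe sets nearest in brightness, chosen after seeing the data, gave 0.07 and 0.11 for the globins and 0.50 and 0.67 for the others. Hba-a1 was then at 0.24 in both and Hbb-b2 at −0.09 and −0.01. For the globins these 201 are the brightest of all, most with a mean signal below 3000. The probe sets over 3000 without globin annotation had medians of 0.21 and 0.19, so this centring may correct the globins too little. Car2 in the B16 lung, level with control, went to −0.01 with this centring and to −0.02 with quantile normalization. Numbers of probe sets at least 2-fold different followed the floor. From 667 in the B16 against control, 570 in the LLC against control and 692 between the tumour-bearing lungs, they went to 161, 141 and 194 with the floor at the percentile 60, to 85, 79 and 115 at a signal of 100, and to 1247, 1100 and 1299 at a signal of 10. At 1.5-fold they were 1905, 1527 and 1817. Nfe2 and Rhag lie below the 2 higher floors and gave no value there. No paired analysis was possible because each group has 1 array. No replicate could be left out for the same reason.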

Other observations

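Carbonic anhydrases other than Car2 were low or level in the B16 lung, where 0 of 4 measured genes were above control (median −0.80), and mixed in the LLC lung, with 3 of 5 above (0.08). Car4, the membrane form of lung capillaries, had 579.5 in the B16 lung and 633 in the LLC lung, against 601 in the control lung, while its second probe set had 34.1 and 49.0 against 67.8. Car8, which lacks enzyme activity, had 89.7 and 172 against 221, Car3 had 68.9 and 399.6 against 285, and Car14 had 41.3 and 46.1 against 50.8. Car1, the other abundant carbonic anhydrase of red cells, was below the floor on all 3 arrays. Cell division genes, which mark dividing cells of any type and not red cell precursors alone, were near the middle. Above control were 8 of 14 in the B16 (0.06) and 10 of 14 in the LLC lung (0.19), and Aurkb, Top2a and Cdk1 were below the floor throughout. The brightest were Mcm5 with 263.5 in the B16 lung and 411 in the LLC lung, against 330.2 in the control lung, Pcna with 200.4 and 247 against 248.6, Mcm3 with 164.5 and 180.2 against 158.7 and Plk1 with 127 and 202 against 131.6. Second probe sets had 22.5, 80.2 and 101.9 for Mcm5 and 140.5, 69.8 and 75.4 for Plk1 in the B16, LLC and control lung. That of Mcm3 had 29.9, 24.8 and 42.2, the opposite direction to its brighter probe set in both tumour-bearing lungs. Rrm2 was at least 2.14-fold higher in the B16 lung than in the control lung, with 50.5 and 26.8 against 11.5, and Mcm7 at least 2.33-fold lower, with 2.9 and 63.0 against 55.0.

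Genes that clear heme and haemoglobin were mostly above control, with 6 of 8 in each tumour-bearing lung and medians of 0.31 and 0.23, where 49.4% and 49.9% of all genes were above control. Hp, which encodes haptoglobin, the binder of free haemoglobin, had 2870.0 in the B16 lung and 2248 in the LLC lung, against 1909.6 in the control lung. Hmox1, the inducible heme oxygenase, had 466 and 462 against 398, and Lrp1, a receptor for the complex of heme and hemopexin, 738 and 603 against 462. Hpx, which encodes hemopexin, was 225 in the LLC lung and 30.4 in the B16 lung, with the control lung below the floor. Hemopexin is made mainly in hepatocytes. The hepatocyte list was high in the LLC lung as well, and a shared source was not tested. Fth1, the ferritin heavy chain, was level on its brighter probe set, with 2884 and 3239.8 against 3157, and read 1567 and 1579 against 1232 on the other.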
